A study of Mus musculus with 14 samples.

Results

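Fap, Mmp2, Mmp9, Timp1, Timp2 and Ctsk encode 4 proteases and 2 protease inhibitors that act on extracellular matrix. They were taken from a table of 9558 gene rows by their symbols, and all 6 had a row. They were put together with results from this table in view, so the levels below describe these cells and no test is applied to them. The table holds 14 single cells, numbered 1 to 14, isolated from tibia, radius and ulna. The donor mice were adult, of the C57BL/6 strain, and carried Prrx1-CreERT;Tomato. In these mice the Prrx1 promoter drives a tamoxifen-dependent Cre recombinase, and recombination turns on the red Tomato reporter. Every cell came from mice given tamoxifen at 2 mg per 30 g of body weight once a day for 3 days. The marrow had been flushed out, collagenase released cells from the minced bone, and sorting for red fluorescence preceded picking under a microscope. There was 1 group and no animal was named, so the cells count as 1 sample. No untreated or Tomato-negative cells were analysed here.

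Bone matrix is made of collagen fibres and mineral, and its turnover depends on secreted and lysosomal proteases held in check by inhibitors. The gelatinases Mmp2 and Mmp9 are secreted as inactive zymogens and cut denatured collagen and basement membrane collagen. Tissue inhibitors of metalloproteinases (TIMPs) bind active metalloproteases, and TIMP-1 and TIMP-2 also bind the zymogens of MMP9 and MMP2. Cathepsin K, encoded by Ctsk, is the lysosomal cysteine protease with which osteoclasts degrade bone collagen. Fibroblast activation protein, encoded by Fap, is a membrane serine protease that cuts after proline and marks activated fibroblasts and some marrow stromal cells.

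Levels are given as log2(FPKM + 1) (FPKM, fragments per kilobase of transcript scaled to library size, is a per-length unit), as deposited after a normalization that gives every cell the same distribution. A level therefore ranks a gene within its cell. A gene is called detected at a value of 1 or more. Stromal matrix genes were present in these cells, since all 10 fibroblast matrix markers examined were detected in at least 7 cells, against 51.7% of all rows. Leukocyte transcripts were present too: 8 of 10 pan-leukocyte genes reached the detection level in at least 7 cells, and the mean over the 10 genes ran from 1.66 in cell 4 to 9.68 in cell 14. In cell 14 none of these 10 genes was at 0, and over all cells a 0 occurred for 1 gene in cell 10. By which rows were at 0, cells 3, 4, 11, 12 and 13 formed a set apart from the 9 others, and 20 rows were above 0 in all 5 of these cells and at 0 in all 9 others. This split comes from the values and is not in the labels.

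Mmp2, Ctsk, Timp1 and Timp2 were detected in every cell, while Mmp9 was detected in 11 cells and Fap in 7. Detection in all 14 cells was thus found for 4 of 6 genes, against 15.8% of all rows. Detection in at least 7 cells was found for all 6, against 51.7% of all rows. Because the genes were chosen from this table, nothing is read from these shares. By median level Timp1 came first at 8.06, followed by Mmp2 at 6.63, Timp2 at 6.56, Ctsk at 6.48, Mmp9 at 3.29 and Fap at 1.56. Within cells, no neighbours in this order differed by more than their spread. Timp1 exceeded Mmp2 in 11 of 14 cells, with a median difference of 2.50 and an SD over the cells of 3.19. Mmp2 exceeded Timp2 in 9 cells (median 0.38, SD 3.43), and Ctsk exceeded Timp2 in 10 cells (median 1.24, SD 3.53). Ctsk exceeded Mmp9 in 11 cells (median 4.63, SD 5.03), and Mmp9 exceeded Fap in 9 (median 0.48, SD 5.31). These levels are per length, and exonic lengths run from 888 bases for Timp1 and 1512 for Ctsk to 5662 for Fap. Mmp2, Mmp9 and Timp2 have 3371, 3539 and 3896. The division by length lowers long genes relative to short ones such as Timp1. An order of the 6 genes with the division undone was not computed. The order and counts above therefore hold per length only.

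**Figure D1:**
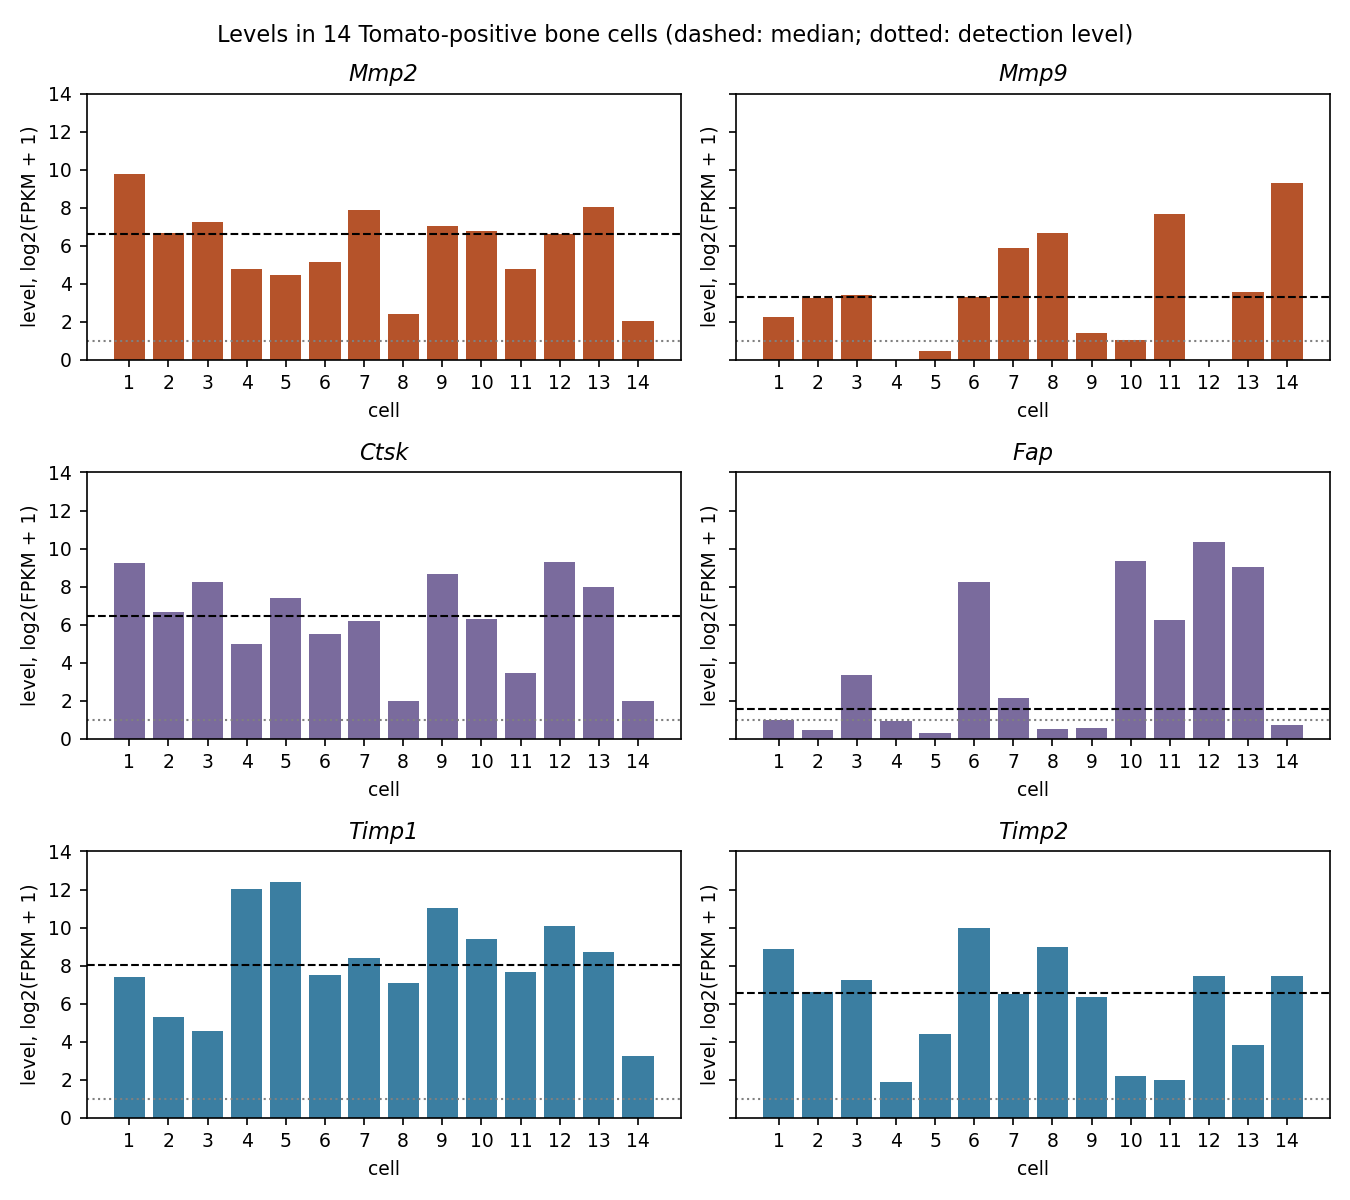
Level of each of the 6 genes (log2(FPKM + 1), vertical axes) in cells 1 to 14 (horizontal axes), with 1 bar per cell, the median as a dashed line and the detection level as a dotted line. Timp1 is highest in cells 4 and 5, Mmp9 in cells 11 and 14, and Fap is at 5 or more in cells 6, 10, 11, 12 and 13.

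The sequence before the transcription start is shown for a protease and an inhibitor that were detected in every cell, Ctsk and Timp1. Ctsk was highest in cell 12 and Timp1 in cell 5, but cells 9 and 12 were high in both. Both genes were lowest in cell 14, and their rank correlation was 0.30. RefSeq windows (build GRCm38.p6) were matched for 3 of the 6 genes, namely Ctsk, Timp1 and Timp2. The 250 bases before the start are printed 5′ to 3′, with capitals for matches, on either strand, to the ETS core AGGAAG and the GC box GGGCGG.
Ctsk, chr3:95498960-95499209, plus strand: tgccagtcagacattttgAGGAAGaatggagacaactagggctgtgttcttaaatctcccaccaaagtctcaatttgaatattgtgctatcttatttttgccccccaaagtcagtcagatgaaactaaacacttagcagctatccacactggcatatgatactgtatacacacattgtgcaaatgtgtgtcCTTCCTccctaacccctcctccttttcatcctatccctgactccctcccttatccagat
Timp1, chrX:20869916-20870165, plus strand: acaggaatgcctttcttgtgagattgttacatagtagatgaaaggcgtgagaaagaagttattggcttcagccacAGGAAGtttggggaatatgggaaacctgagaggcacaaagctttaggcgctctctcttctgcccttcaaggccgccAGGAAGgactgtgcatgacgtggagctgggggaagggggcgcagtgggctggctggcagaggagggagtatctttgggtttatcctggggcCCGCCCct

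Both windows held 2 matches to AGGAAG, which 29.2% of 27025 windows of 250 bases hold at least once, and Timp1 held 1 match to GGGCGG, which 32.9% of windows hold. The Ctsk window had a GC content of 43.2% and 0 CpG dinucleotides. The Timp1 window had a GC content of 54.4% and 6 CpG, and that of Timp2 68.0% and 21 CpG, against medians of 52.0% and 6 over all windows. The Timp2 window overlapped annotated exons and is not printed. Neither TGANTCA (6.87% of windows of 250 bases) nor TATAAA (12.97%) was found in the 3 windows. TGANTCA, with N for any base, is a loose form of the core bound by the transcription factor AP-1. A variant of the AP-1 core, TGAGTAA, began at transcribed base 27 of Timp1, and 2.71% of windows of 300 bases that include the first 50 transcribed bases hold it. It is shown in capitals.
Timp1, chrX:20870185-20870205, plus strand: gggtggaTGAGTAAtgcgtcc

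AP-1 is a dimer of Fos and Jun proteins, and 7 of its genes were examined after the values had been seen. Their mean level was lowest in cell 4, at 2.65, and in cell 5, at 3.43, the cells with the highest Timp1. In the other cells it ranged from 4.10 to 6.50. Junb was at 2.22 and 4.45 in cells 4 and 5 against a median of 7.50, and Fosb at 1.32 and 1.07 against a median of 6.30. Not all 7 were low there: in cell 5 Fosl1 was at 3.38 against a median of 0.40, and Fosl2 and Jund, at 1.85 and 3.60, were near their medians of 1.90 and 3.96. Over the 14 cells the rank correlation of Timp1 with Junb was -0.35 and with Fos -0.02. A match of letters does not show binding.

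The gelatinases differed in how they were spread over the cells. Mmp2 (ENSMUSG00000031740, chromosome 8, 92827291 to 92853420 in GRCm38) ranged from 2.05 in cell 14 through a median of 6.63 to 9.76 in cell 1, with an SD of 2.15. Its level in cell 1 was the 152nd highest of the 9558 rows of that cell, and in cell 14 the 3821st. Cells 1, 13 and 7 held the most, at 9.76, 8.02 and 7.88, and only cells 8 and 14 were below 4, at 2.43 and 2.05. The median was 6.59 in the set of 5 cells and 6.68 in the set of 9. Of 8 cartilage markers 3 had a row, and their mean, from 0.21 in cell 14 to 5.66 in cell 1, had a rank correlation of 0.80 with Mmp2 and of 0.70 without cells 8 and 14. This was the highest value among the marker lists, followed by 0.60 for the osteoblast list and 0.565 for the fibroblast matrix list. The cartilage mean also had a rank correlation of 0.68 with Ctsk.

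Mmp9 (ENSMUSG00000017737, chromosome 2, 164940780 to 164955850) ranged from 0 to 9.29 with a median of 3.29 and an SD of 2.94. It was detected in 11 of 14 cells (78.6%, exact Clopper-Pearson 95% interval 49.2% to 95.3%, which covers counting error only). The interval takes the cells as independent draws, although they count as 1 sample. Mmp9 was listed at 0 in cells 4 and 12, and cell 5 held 0.45. The highest levels were 9.29, 7.65, 6.68 and 5.86 in cells 14, 11, 8 and 7. The other cells lay at or below 3.57. Mmp2 exceeded Mmp9 in 11 of 14 cells, and the exceptions were cells 8, 11 and 14. In cell 14 Mmp9 was higher by 7.24 log2 units, the widest gap in that direction. The rank correlation of Mmp2 with Mmp9 depended on the cells used. It was -0.16 over all cells, 0.27 without cells 11 and 14, and -0.38 within the set of 9 cells. Without cells 6, 8, 11 and 14 it was 0.77, a choice that removes cells 8, 11 and 14, where Mmp9 exceeded Mmp2.

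Mmp9 followed the leukocyte genes across the cells. The rank correlation with the mean of the 10 pan-leukocyte genes was 0.77 over the 14 cells (Pearson's r 0.92), and 0.64 without cells 11 and 14. It was 0.52 without cells 6, 8, 11 and 14, and 0.98 within the set of 9 cells. All 14 points share the normalization, and this is 1 of 93 correlations computed, so no p-value is given. Ptprc, which encodes CD45, was at 8.31, 6.51 and 3.27 in cells 11, 14 and 8, and at or below 1.21 in the other cells. Lyz2, the lysozyme of myeloid cells, was at 13.56, 11.40 and 10.69 in cells 14, 8 and 11. The part of leukocyte RNA in the Mmp9 levels was not tested.

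Cell 6 was high in neutrophil genes but not in Mmp9. Its neutrophil list mean was the highest, at 9.20, and Mmp9 was at 3.31 there. It held Elane, the neutrophil elastase gene of early granules, at 8.13, and the peroxidase gene Mpo at 11.25. Prtn3 and Ctsg, further protease genes of early granules, were listed at 0 in cell 6, and Elane was also at 2.37 in cell 8. Mmp8, the neutrophil collagenase stored in later granules, was at 6.25 in cell 6, against 10.04, 7.67 and 7.30 in cells 14, 8 and 11. Elane was listed at 0 in cells 11 and 14, and Mpo was at 0.01 and 0.93 in them. The rank correlation of Mmp9 with Mmp8 was 0.59, and 0.35 without cells 11 and 14.

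**Figure D2:**
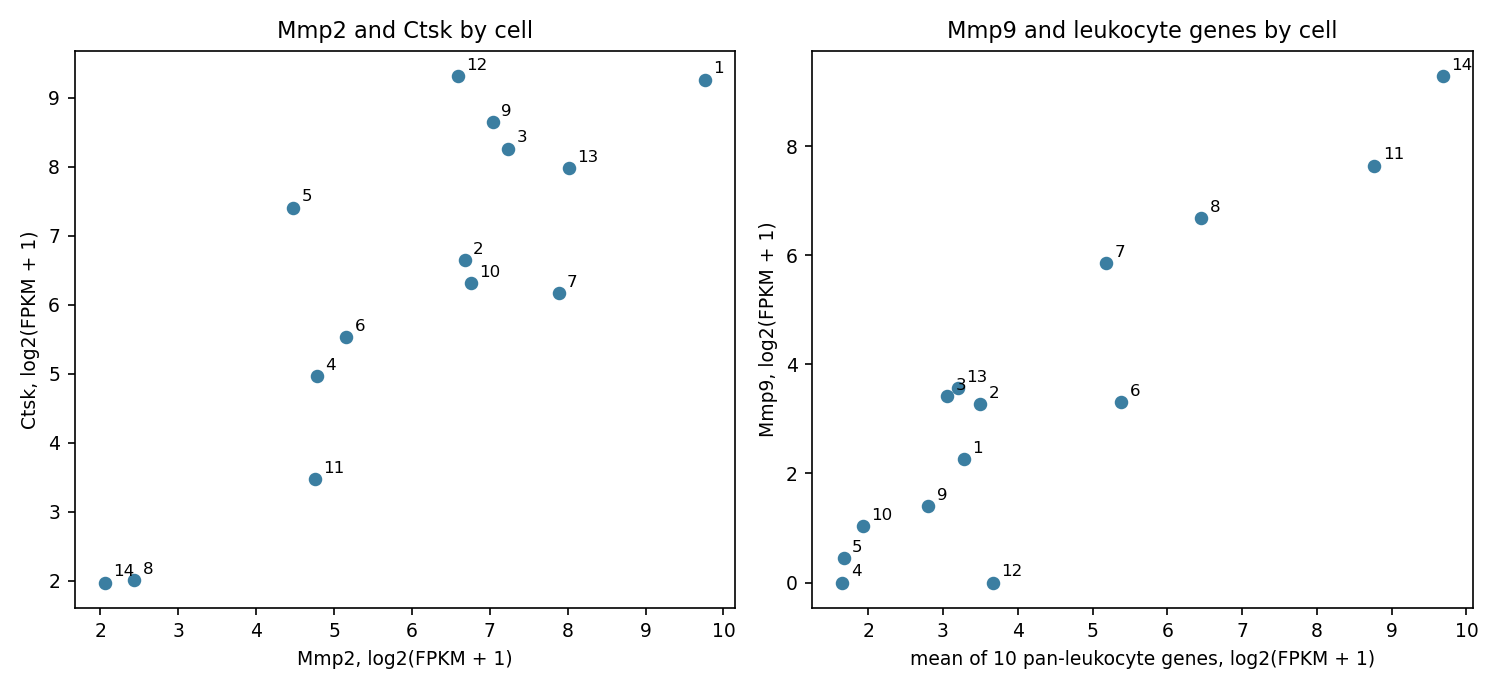
Left: Ctsk against Mmp2, right: Mmp9 against the mean of 10 pan-leukocyte genes, each point 1 numbered cell and both axes in log2(FPKM + 1). Cells 8 and 14 are low in both Mmp2 and Ctsk, and cells 11 and 14 are high in both Mmp9 and the leukocyte genes.

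Ctsk (ENSMUSG00000028111, chromosome 3, 95499256 to 95509362) ranged from 1.97 in cell 14 through a median of 6.48 to 9.32 in cell 12, with an SD of 2.46. Cells 12, 1, 9 and 3 held 9.32, 9.26, 8.65 and 8.27. Cells 14, 8 and 11 held the least, at 1.97, 2.01 and 3.48, and they were also the cells in which Mmp9 exceeded Ctsk. The rank correlation of Ctsk with Mmp9 was -0.57, but -0.32 without cells 11 and 14 and -0.085 without cells 6, 8, 11 and 14.

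Most other osteoclast genes had low medians, though some were high in single cells. Of 14 osteoclast markers 8 had a row, among them Ctsk and Mmp9, and 6 others. The mean over those 6 ran from 1.08 (cell 4) to 2.93 (cell 12), and its rank correlation with Ctsk was -0.07. That value depended on the cells used: it was 0.53 without cells 6, 8, 11 and 14 and -0.67 within the set of 9 cells. Acp5, the tartrate-resistant acid phosphatase of osteoclasts, was at 5.36 and 5.13 in cells 12 and 11 and listed at 0 in 9 cells, among them cells 1 and 9 with Ctsk at 9.26 and 8.65. Those 9 cells are the larger set of the split by zeros, so the zeros of Acp5 and the split cannot be told apart. Itgb3, the integrin beta 3 gene, was detected in cell 8 alone, at 4.44. Tcirg1, a proton pump subunit of osteoclasts and other cells, was detected in all 14 cells (median level 5.00). Clcn7 passed the detection level in 11 cells, with a median of 1.95 and its highest level, 7.13, in cell 6. For Nfatc1 the median was 0.56. Nfatc1 was at 5.42, 4.57, 4.26, 3.91 and 3.57 in cells 3, 11, 10, 12 and 5. Ctsk was at 8.27, 3.48, 6.32, 9.32 and 7.41 in these cells. In cells 1 and 9, both high in Ctsk, Nfatc1 was at 0.16 and 0.28. Ostm1 had a median of 0.11 and was highest in cell 14, at 4.10.

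Mmp2 and Ctsk tended to be high in the same cells. Their rank correlation was 0.69 (r 0.84). Per length, their levels differed by a median of 0.03 with an SD of 1.35, the smallest spread among the 15 pairs. Mmp2 has 3371 exonic bases and Ctsk 1512, and this difference was not computed with the division by length undone. Cell 5 departed most, with Ctsk at 7.41 and Mmp2 at 4.48. The relation rested partly on the cells low in both: without cells 8 and 14 the rank correlation was 0.50, and without cells 6, 8, 11 and 14 it was 0.27. Both genes were at 5 or more in 9 cells. Mrc2, a collagen uptake receptor of mesenchymal cells, was detected in 8 cells, with 5.03, 5.67 and 5.78 in cells 1, 9 and 13, and had a rank correlation of 0.565 with Ctsk.

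Fap (ENSMUSG00000000392, chromosome 2, 62500943 to 62574075, minus strand) was the most uneven of the 6. It ranged from 0.33 in cell 5 to 10.34 in cell 12 around a median of 1.56, and its SD of 3.92 was larger than that of 99.9% of the rows. Detection in 7 of 14 cells gives a share of 50% (exact 95% interval 23.0% to 77.0%). This interval covers counting error only and takes the cells as independent draws, although they count as 1 sample. Cells 12, 10, 13, 6 and 11 held 10.34, 9.35, 9.04, 8.23 and 6.23, cells 3 and 7 held 3.38 and 2.16, and the other 7 cells lay between 0.33 and 0.97. No cell lay between 3.38 and 6.23. The median was 6.23 in the set of 5 cells and 0.72 in the set of 9, and whether the split by zeros bears on Fap was not tested. In cell 12 Fap was the 94th highest row.

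Fap was high in all 3 cells with the highest osteoblast gene means, and in 2 further cells. The osteoblast list mean was 8.16, 8.10 and 6.92 in cells 10, 13 and 6, and no more than 4.78 in the rest. Ifitm5, a bone-restricted membrane protein gene of osteoblasts, was at 11.72, 10.60 and 9.004 in cells 6, 13 and 10, but at 2.90 and 2.72 in cells 12 and 11, where Fap was also high. The rank correlation of Fap with the osteoblast list was 0.56 (r 0.66), and with the fibroblast matrix list 0.06. The mean of the 6 osteoclast markers had a rank correlation of 0.57 with Fap, although it stayed at or below 2.93. Bmp1, the procollagen C-proteinase gene, was at 7.55, 6.41, 6.09, 5.45 and 4.53 in cells 6, 11, 13, 10 and 12, the 5 cells with high Fap. It was also at 5.89 in cell 2, where Fap was at 0.44.

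Of 7 measured prolyl peptidases, 2 were detected in at least 7 cells (51.7% over all rows), and their median level over genes was 0.30 against 0.96 over all rows. Dpp4, the closest relative of Fap, was detected in 3 cells and highest in cell 8, at 5.68, where Fap was at 0.54. Prcp, a lysosomal carboxypeptidase that also cuts at proline, was detected in all 14 cells and reached 10.32, 6.64 and 6.42 in cells 6, 13 and 10. Its rank correlation with Fap was 0.83, and 0.83 without cells 10 and 12. Within the set of 9 cells it was 0.90.

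**Figure D3:**
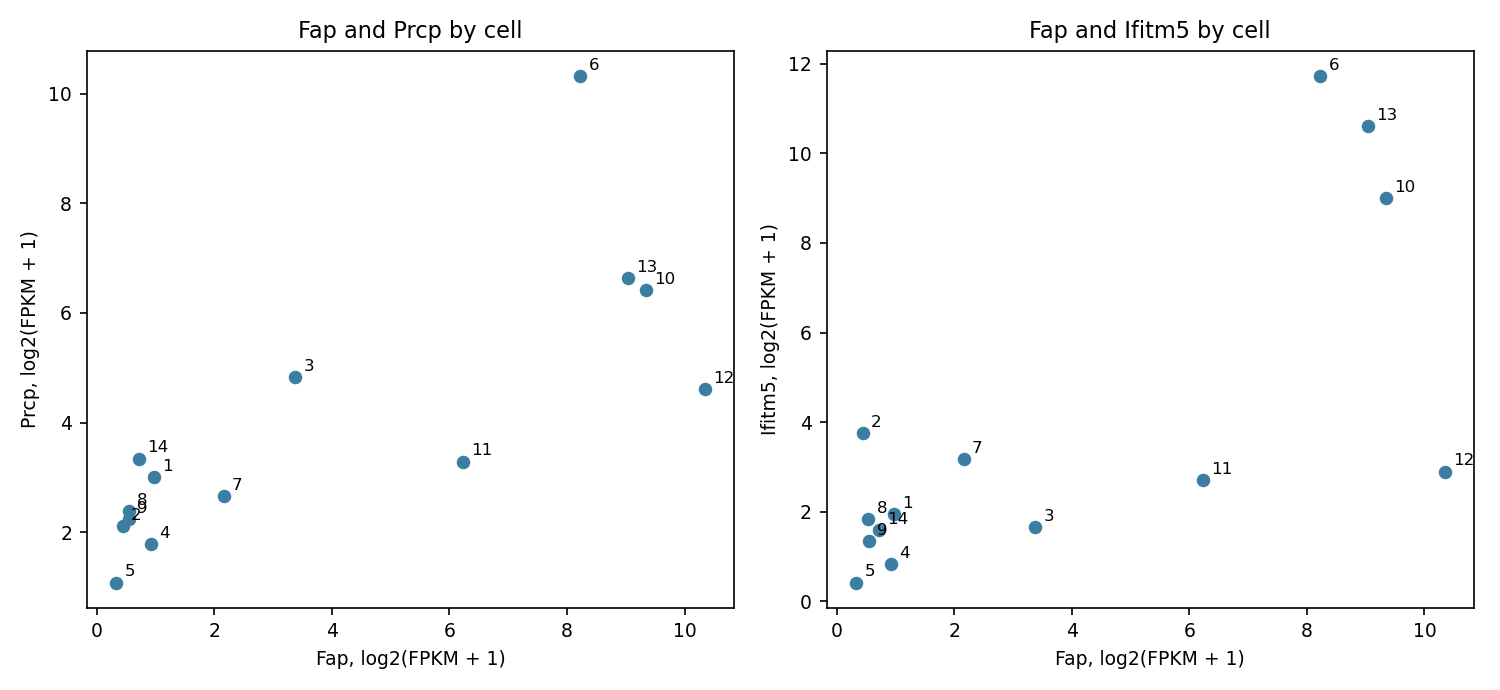
Prcp (left) and Ifitm5 (right) against Fap, each point 1 numbered cell and all axes in log2(FPKM + 1). Cells 6, 10 and 13 are high in Fap and Ifitm5, whereas cells 11 and 12 are high in Fap with Ifitm5 at 2.72 and 2.90.

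Timp1 (ENSMUSG00000001131, chromosome X, 20870166 to 20874735) ranged from 3.26 in cell 14 through a median of 8.06 to 12.39 in cell 5, with an SD of 2.69. It was the 10th highest row of cell 5 and the 15th of cell 4, where it was at 12.01. Cells 9 and 12 followed at 11.02 and 10.07. Only cells 3 and 14 were below 5, at 4.56 and 3.26. Timp1 was the highest of the 6 genes in 6 cells, namely 4, 5, 7, 9, 10 and 11.

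Timp2 (ENSMUSG00000017466, chromosome 11, 118301069 to 118355740, minus strand) ranged from 1.86 in cell 4 through a median of 6.56 to 9.99 in cell 6, with an SD of 2.70. Cells 6, 8 and 1 held 9.99, 8.96 and 8.90. The lowest were cells 4, 11 and 10, at 1.86, 2.00 and 2.20. The median was 3.84 in the set of 5 cells and 6.62 in the set of 9. The rank correlation of Timp2 with the mean of the 10 measured neutrophil genes was 0.61, and with that of the 6 measured macrophage and monocyte genes 0.64. Without cells 11 and 14 they were 0.84 and 0.86. The part of myeloid RNA in the Timp2 levels was not tested. Timp1 exceeded Timp2 in 8 cells and Timp2 exceeded Timp1 in 6, by up to 10.15 log2 units in cell 4 and 4.18 in cell 14.

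The inhibitors ran against each other across the cells, with a rank correlation of -0.56 (r -0.47). It was -0.57 without cells 5 and 14, -0.62 without cells 11 and 14, and -0.65 within the set of 9 cells. The third measured TIMP gene, Timp3, whose protein stays bound to the matrix, was detected in 13 cells (median level 3.33) and was highest in cell 8, at 7.77, and cell 3, at 7.59. Its rank correlation was 0.39 with Timp2 and -0.39 with Timp1. Reck, a membrane-anchored metalloprotease inhibitor gene, was detected in cell 9 alone, at 3.30.

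**Figure D4:**
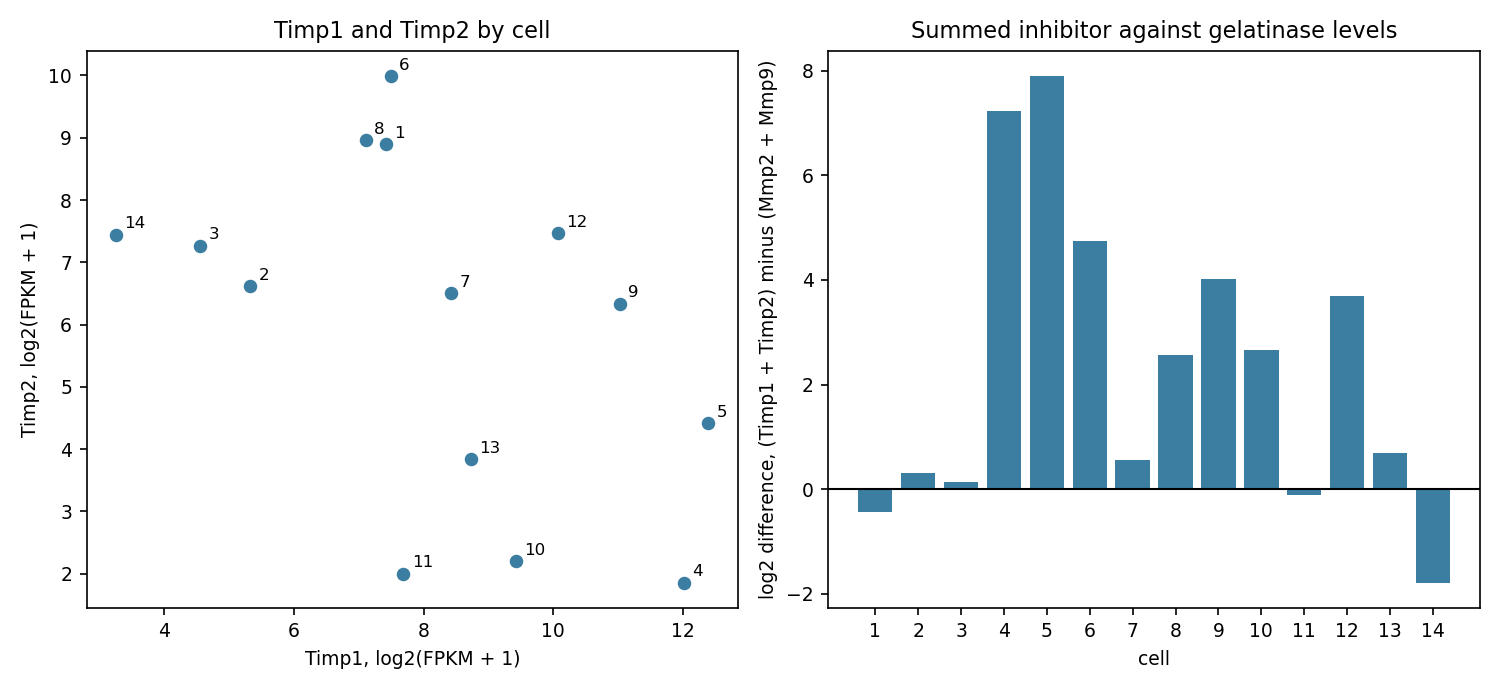
Left: Timp2 against Timp1 by numbered cell, both axes in log2(FPKM + 1). Right: bars give the per-length log2 difference between summed Timp1 and Timp2 and summed Mmp2 and Mmp9 in each cell, which runs from -1.78 in cell 14 to 7.89 in cell 5 and is below 0 in cells 1, 11 and 14.

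Each inhibitor was set against the gelatinase whose zymogen it binds. Timp1 exceeded Mmp9 in 13 of 14 cells, by a median of 4.67 (SD 5.21, range -6.03 to 12.01), and cell 14 was the exception. Timp1 is a short gene, with 888 exonic bases against 3539 for Mmp9. With the division by length undone the median difference was 2.78, and among the 11 cells with both genes detected it was 2.57. The rank correlation of Timp1 and Mmp9 was -0.71, and it was -0.70 without cells 11 and 14 and -0.72 without cells 6, 8, 11 and 14. Timp1 also had a negative rank correlation with the pan-leukocyte mean (-0.65, and -0.45 without cells 5 and 14), and the part of leukocyte RNA in this relation was not tested.

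Timp2 and Mmp2 were closer in level. Timp2 exceeded Mmp2 in 5 of 14 cells, with a median difference of -0.38 (SD 3.43, range -4.55 in cell 10 to 6.53 in cell 8). The median was -2.75 in the set of 5 cells and -0.06 in the set of 9. Their rank correlation was -0.04, and 0.36 without cells 6, 8, 11 and 14. Activation of the MMP2 zymogen at the cell surface needs Mmp14, a membrane-anchored metalloprotease, with TIMP-2 as a bridge. Mmp14 was detected in 12 cells (median level 3.03), and was at 7.42, 7.26, 6.94 and 5.73 in cells 6, 1, 13 and 9. Mmp2, Mmp14 and Timp2 were detected together in 12 cells and were all at 5 or more in cells 1, 6 and 9.

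Summed in linear FPKM, Timp1 and Timp2 exceeded Mmp2 and Mmp9 in 11 of 14 cells, by a median of 1.63 log2 units (SD 2.92). With the division by length undone, an alternative added after the data had been seen, the median was 0.48 (SD 2.63), and the sum was higher in 9 cells, cells 7 and 13 having changed sign. Per length, the difference was 7.89 and 7.23 in cells 5 and 4, where Timp1 made up nearly all of the inhibitor sum. It was -1.78 in cell 14, through Mmp9, and -0.43 in cell 1, through Mmp2. Cells 2, 3, 7, 11 and 13 lay between -0.11 and 0.70.

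Of 4 other measured secreted metalloproteases, 2 were detected in at least 7 cells, close to the 51.7% of all rows, namely Mmp8 and Mmp23. Mmp23, a membrane-released metalloprotease gene, was detected in 13 cells (median level 3.90), and reached 8.51 and 7.94 in cells 10 and 13. Its rank correlation with Mmp2 was 0.85. Mmp13, the collagenase of osteoblasts and hypertrophic chondrocytes, was detected in cells 7 and 11, at 6.81 and 5.60. Of 3 measured membrane-type genes, Mmp14 was the 1 detected in at least 7 cells.

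Among ADAM and ADAMTS genes, 5 of 8 and 4 of 6 were detected in at least 7 cells, near the 51.7% of all rows. Adam15 was detected in all 14 cells (median level 4.97), and Adamts1, an aggrecan- and versican-cutting enzyme, in 13 with a median of 5.27. Adamts2, the procollagen N-proteinase, was at 6.54, 6.20, 4.97 and 4.70 in cells 7, 13, 1 and 9, with a median of 1.54. Its rank correlation with Mmp2 was 0.88, and 0.83 without cells 8 and 14. Adam8, a protease of myeloid cells, was at 8.62, 6.59 and 5.73 in cells 14, 8 and 11.

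Apart from Ctsk, the cathepsin list had 14 measured genes, among them Lgmn and Tpp1, which are not cathepsins. Of these 14, 11 passed the detection level in at least 7 cells, against 51.7% of all rows. Lgmn and Tpp1, detected in 11 and 9 cells, were among them. In every cell 6 of the 14 did so, against 15.8%. Ctsl had a median of 7.96 and Ctsb of 6.89, and both varied less than Ctsk, from 5.78 to 9.75 and from 5.39 to 9.14. Ctss, the cathepsin of antigen-presenting cells, was at 9.06 in cell 14 and at or below 2.84 elsewhere. The cysteine protease inhibitor Cst3 (cystatin C) was detected in all 14 cells (median level 12.24), and Cstb with a median of 9.92.

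**Figure D5:**
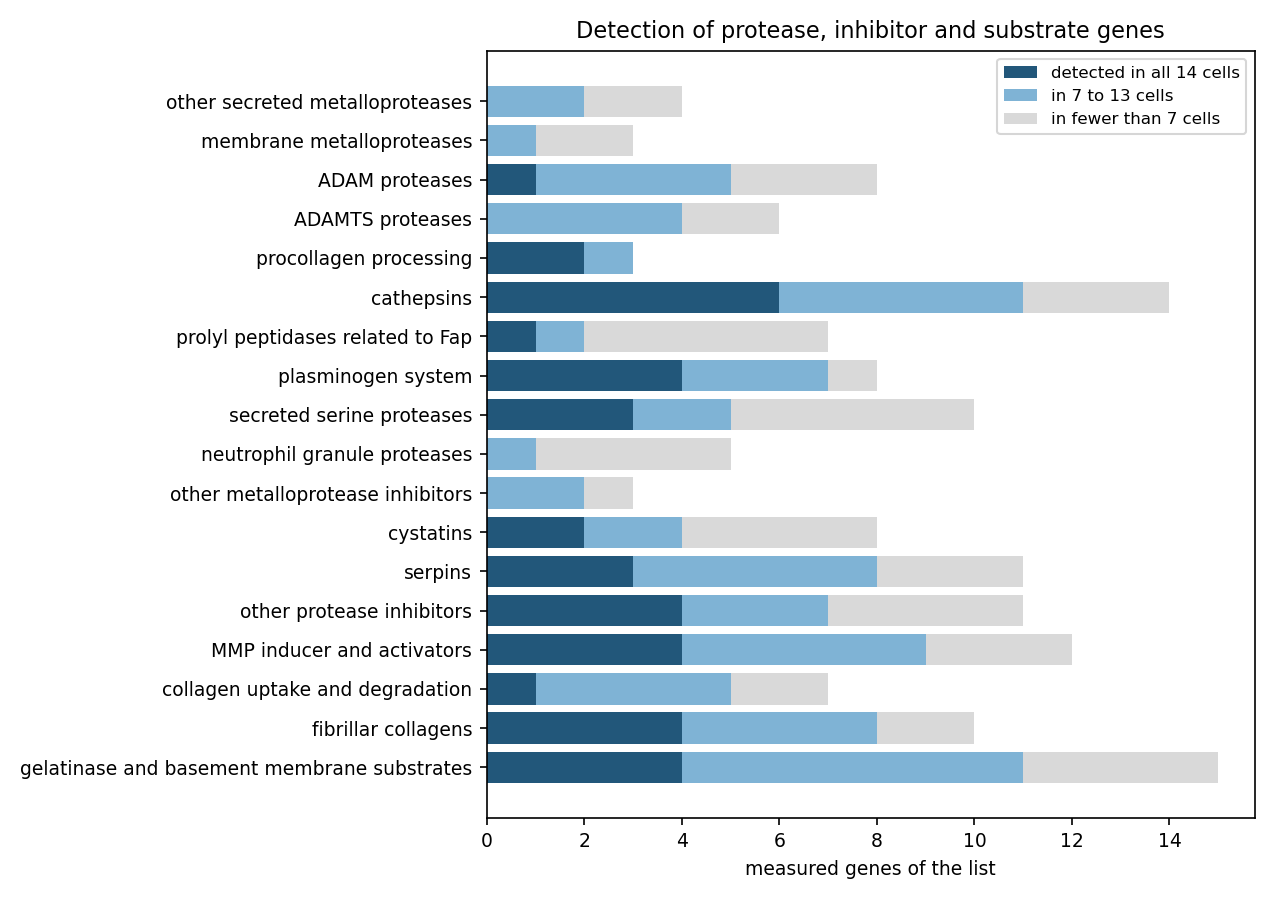
Number of measured genes in each protease, inhibitor and substrate list (horizontal axis), split by detection in all 14 cells, in 7 to 13 cells and in fewer than 7. The cathepsin list has 6 of 14 genes in all cells, against 15.8% of all rows. The neutrophil granule protease list, which also holds the peroxidase gene Mpo, has 1 of 5 in at least 7 cells, against 51.7%.

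Genes of the plasminogen system were detected in at least 7 cells for 7 of 8 members, against 51.7% of all rows. Plaur, the urokinase receptor gene, was detected in all 14 cells (median level 5.62), while the urokinase gene Plau was detected in 6 and highest in cell 3, at 6.95. Serpine2, protease nexin 1, had a median of 7.03 and reached 12.65 in cell 9. Of 11 measured serpins, 8 reached that number of cells.

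The substrates were present in the same cells. Of 10 measured fibrillar collagen genes, 8 passed that level in at least 7 cells (51.7% over all rows), and 4 did so in every cell (15.8%). Col1a1 reached 12.96, 11.58 and 10.96 in cells 13, 6 and 10. Of the basement membrane genes, Col4a1 was detected in 10 cells, and ran from 0.48 in cell 4 to 7.998 in cell 2. In cells 14 and 11, the highest in Mmp9, it was at 0.70 and 5.67. Fn1 (fibronectin) was detected in all 14 cells (median level 8.07).

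For each of the 6 genes, the 5 most similar were sought by rank correlation over the 14 cells among 6046 other rows detected in at least 5 cells. A search of this size returns high values for any gene, and the highest value per gene lay between 0.85 and 0.94. For Mmp2 they were Adamts2 (0.88), Serpinf1 (0.86), Mmp23 (0.85), Srgap2 (0.81) and Micu2 (0.81). For Mmp9 they were Laptm5 (0.94), Clec4e (0.93), Git2 (0.92), Lyz2 (0.88) and Lilr4b (0.88), of which Laptm5, Clec4e, Lyz2 and Lilr4b are genes of leukocytes. The search for Fap gave Map4k3 (0.85), Rasgrp2 (0.84), Prcp (0.83), Cdo1 (0.83) and Map4 (0.83), and that for Ctsk gave, among its 5, Cdc42se2 (0.89), Yrdc (0.88), Mettl20 (0.83) and Fndc3b (0.82). Timp1 was most like Ift27 (0.89), Commd1 (0.88), Ppp2r4 (0.87), Naca (0.83) and Rcn3 (0.83), and Timp2 most like Baz2b (0.85), Ankrd23, Samd8, Ypel1 and Supt5 (0.80 to 0.81). Of these 30 genes, 12 were again among the first 5 without cells 11 and 14, and 7 when Pearson's r was used.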

How the data were processed

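Per the labels' protocols, libraries were made from single picked cells with a SMART-Seq v4 3' kit and Nextera XT. The submitters' processing notes list TopHat2 and Cufflinks, without versions, and GRCm38. The deposited values were read as log2(FPKM + 1), quantile-normalized, because the highest value was 14.58 in every cell and the values at each of the first 7304 ranks differed by at most 0.0246 between cells. Neither the log scale nor the normalization is given in the sources used here. Depth is unknown. FPKM divides by length although a 3' kit reads transcript ends, which understates long genes.

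Cells were matched to columns by title, and 0 columns were left over. With 1 group and no animal named, no test was run. Computed were levels, ranks, within-cell differences, detection counts and correlations, with Python 3.11.15, pandas 2.3.3 and scipy 1.17.1. The search for similar genes was tested on simulated data in which planted rows followed a chosen gene without noise. Their recovery checks the code only and not the genes found here. The search left out ribosomal, mitochondrial, predicted and small RNA symbols. Where a symbol had several rows, only its first counted. Named genes are the 6 genes, measured genes of the protease, inhibitor, substrate and cell type lists, and the 5 most similar genes of each; the AP-1 genes were added after their values were seen. The genes and lists were chosen with earlier results of these data known. Positions and exonic lengths are from GENCODE M21 (GRCm38). Alternatives were other thresholds, pseudocounts, cells, and length undone. Some genes that the naming rule selects are not reported here.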

Additional observations from a re-analysis of the deposited data

How the results depend on the processing

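With no replicate samples, the alternatives show only how far a value moves. The number of the 6 genes detected in every cell was 4, falling to 1 when the detection level was set at FPKM 5 and to 0 when it was set at FPKM 10. Of the 30 most similar genes, 7 were found again with Pearson's r, 12 without cells 11 and 14, and 5 without cells 6, 8, 11 and 14; the cause was not tested. Leaving out cells for the similar genes, and the split by zeros, were choices made with the data in view. The 3 median within-cell differences kept their sign in every alternative run and moved by less than their SD over the cells. Timp1 minus Mmp9 ran from 2.57 to 6.78 around 4.67, Ctsk minus Mmp9 from 2.78 to 5.13 around 4.63, and Timp2 minus Mmp2 from -2.75 to -0.06 around -0.38. Of 18 detection counts at other thresholds, 2 moved by over 1.5 times: Fap was above 0 in 14 cells against 7 detected, and Mmp9 was in 5 cells at FPKM 10 against 11. Of 24 medians over fewer cells, 2 moved by more than the SD, those of Fap and Timp2 in the set of 5 cells. No paired analysis was possible because there is only 1 group.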

Other observations

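Mmp11 is among the 20 of 9558 rows that follow the split by zeros exactly. This gene (stromelysin 3, a metalloprotease of stromal fibroblasts) was above 0 in cells 3, 4, 11, 12 and 13 and listed at 0 in all 9 others, with 9.18, 5.38 and 3.86 in cells 3, 4 and 13. Stfa3, a stefin that inhibits cysteine proteases, was above 0 in 7 of the 9 cells, at 7.53 and 6.97 in cells 8 and 14. Its relatives BC100530 and Stfa1 were highest in cell 11, at 11.33 and 10.62. The stefin genes are near-identical copies, so reads may have been split between them.

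The 6 measured genes of the WAP family of small secreted inhibitors differed in where they were high. Slpi, the secretory leukocyte protease inhibitor gene, was detected in all 14 cells and was at 12.28, 11.70, 10.90 and 10.49 in cells 14, 11, 6 and 8, against a median of 5.06. Wfdc17 was highest at 12.22 and 11.85, in cells 11 and 8, and Wfdc21 at 13.56 and 12.96, in cells 11 and 14. Wfdc1 was highest in cell 2, at 7.39, and held 1.27 in cell 14 and 1.17 in cell 11. Wfdc2 was listed at 0 in cell 14, and Wfdc18 was at 6.52 there, below its median of 6.94. Serping1, the complement C1 inhibitor gene, had a different order, with 11.79, 11.38 and 10.29 in cells 9, 2 and 7.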
